A study of Mus musculus with 12 samples.

Results

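The unfolded protein response genes examined here are 10 genes of the response to misfolded protein in the endoplasmic reticulum (ER), listed by symbol: Xbp1, Hspa5, Atf4, Ddit3, Herpud1, Sdf2l1, Dnajb9, Manf, Pdia4 and Hsp90b1. Rows named for them were read from the deposited log2 table, the brightest row being kept for each gene, which gave 8 genes of 19505. Manf and Pdia4 had no row named here and were not analysed here. Expression was measured on 1 array per mouse in regulatory T cells, a class of CD4 lymphocyte that holds other immune cells in check, sorted from lymph nodes as CD4+, CD8- and low for CD45RB, with CD25+ given in the sample labels. The mice were females of 4 to 8 weeks, 6 of the autoimmune-prone NOD strain and 6 labelled NOD.Drak2-/-, in which the kinase gene Drak2 (Stk17b) is disrupted on that same background. No treatment is named, and details of the allele are unknown here. The comparison asks whether ER stress genes differ in regulatory T cells with and without intact Drak2, and every difference is the NOD.Drak2-/- mean minus the NOD mean on the log2 scale.

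When unfolded protein gathers in the ER, the sensors IRE1, PERK and ATF6 are released. IRE1 splices Xbp1 mRNA into the form that encodes an active transcription factor, PERK slows translation and thereby favours the making of ATF4, and ATF6 is cleaved to an active factor. Together these factors raise chaperones, protein disulphide isomerases and the machinery that removes misfolded protein, and under prolonged stress ATF4 raises CHOP, the product of Ddit3. In lymphocytes the pathway is best known from plasma cells, whose secretion of antibody depends on XBP1. A row sums the probes of its gene, so the spliced and unspliced forms of Xbp1 were not separated, nor were the proteins and their cleavage measured.

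The promoters of 9 of the 10 genes had an entry in RefSeq (GRCm38.p6), each covering 250 bases before and 50 after the annotated start, and 3 of them held a match to an ER stress element. The classical element, CCAAT and CCACG with 9 bases of any kind between them on either strand, is known to be bound by ATF6 together with the CCAAT factor NF-Y. It was matched in 0.119% of 32851 promoters, among them those of Hspa5 (1 match) and Hsp90b1 (2 matches, 1 on each strand). ER stress element II, in which 1 base of any kind parts ATTGG from CCACG, was matched in 0.0365% of the promoters, among them that of Herpud1. The promoter of Dnajb9 is shown beside them because Dnajb9 had the largest difference between the genotypes of the members, and it held the parts CCAAT and CCACG but no match with the required spacing. Capitals mark the whole element in the promoters of Hspa5, Hsp90b1 and Herpud1 and the separate parts in that of Dnajb9. They lie at chr2:34771840-34772139 on the plus strand (Hspa5), chr10:86705395-86705694 on the minus strand (Hsp90b1), chr8:94386179-94386478 on the plus strand (Herpud1) and chr12:44210019-44210318 on the minus strand (Dnajb9).
Hspa5: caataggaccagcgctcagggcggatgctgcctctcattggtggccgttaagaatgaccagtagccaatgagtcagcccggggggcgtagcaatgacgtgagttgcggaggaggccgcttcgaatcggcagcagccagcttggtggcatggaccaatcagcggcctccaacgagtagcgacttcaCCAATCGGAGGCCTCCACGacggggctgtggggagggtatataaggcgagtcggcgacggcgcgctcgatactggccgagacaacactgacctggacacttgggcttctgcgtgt
Hsp90b1: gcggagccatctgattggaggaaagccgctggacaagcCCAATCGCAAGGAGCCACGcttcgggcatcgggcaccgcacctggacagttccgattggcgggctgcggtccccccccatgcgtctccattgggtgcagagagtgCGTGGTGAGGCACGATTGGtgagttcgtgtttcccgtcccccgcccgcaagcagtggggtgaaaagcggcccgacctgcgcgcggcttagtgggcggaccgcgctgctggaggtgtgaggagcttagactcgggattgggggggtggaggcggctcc
Herpud1: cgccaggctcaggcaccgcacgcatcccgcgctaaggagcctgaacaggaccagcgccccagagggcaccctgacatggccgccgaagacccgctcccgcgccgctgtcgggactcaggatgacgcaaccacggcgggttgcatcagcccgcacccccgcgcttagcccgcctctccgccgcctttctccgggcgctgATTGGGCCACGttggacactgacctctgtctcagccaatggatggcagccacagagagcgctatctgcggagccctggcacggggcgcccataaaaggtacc
Dnajb9: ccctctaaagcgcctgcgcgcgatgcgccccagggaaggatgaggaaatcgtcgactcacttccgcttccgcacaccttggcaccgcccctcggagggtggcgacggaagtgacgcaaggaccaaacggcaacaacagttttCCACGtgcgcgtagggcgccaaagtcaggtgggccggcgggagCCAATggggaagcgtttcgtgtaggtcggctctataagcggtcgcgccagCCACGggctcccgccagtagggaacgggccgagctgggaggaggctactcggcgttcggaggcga

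In the promoter of Hspa5 the element ran from base -65 to base -47 before the start, and in that of Hsp90b1 from -212 to -194 and from -107 to -89. The match in Herpud1 ran from -52 to -42. Its parts alone were common, CCAAT being found in 37.4% and CCACG in 32.8% of all promoters, and each match of a longer element contains both, ATTGG being CCAAT read from the other strand. The unfolded protein response element TGACGTGG (0.676% of promoters) and the cAMP response element TGACGTCA (1.79%), the latter a site of ATF-family factors, were matched in 0 of the 9. The core TGATGNAA of composite C/EBP-ATF sites (3.97% of promoters) was matched in Herpud1 alone of the 9. A match describes letters in these windows and not binding, and no factor was measured.

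**Figure D1:**
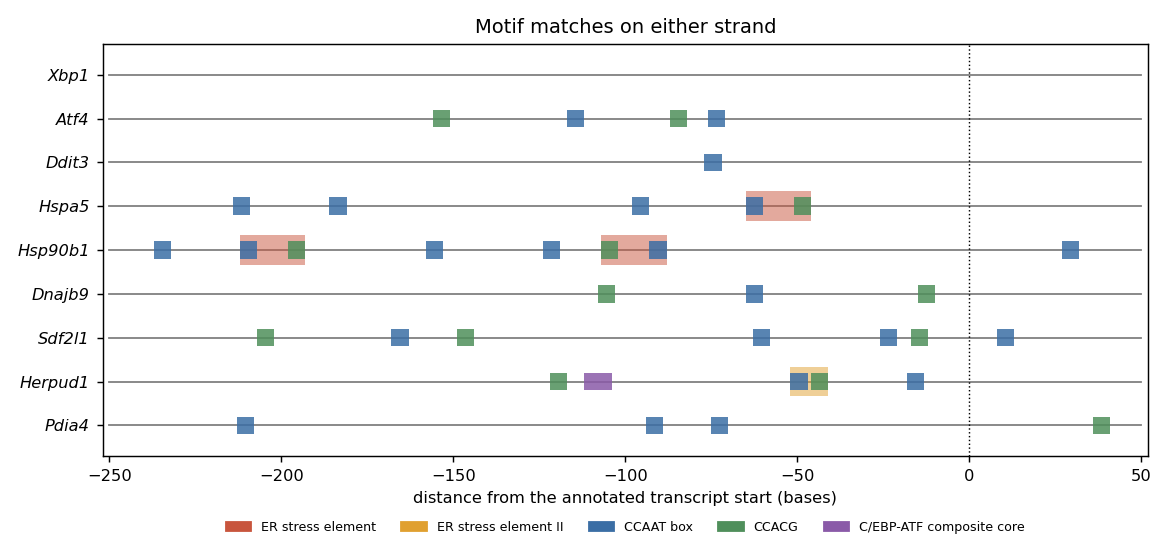
Motif matches in the promoters of the 9 unfolded protein response genes with a RefSeq entry, by distance in bases from the annotated transcript start (dotted line), with 1 line per gene. Wide boxes mark the ER stress element (Hspa5, and Hsp90b1 at 2 places) and ER stress element II (Herpud1), narrow boxes the single CCAAT and CCACG parts and the C/EBP-ATF core. Xbp1 held no match of any kind searched.

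Across the series the arrays correlated with one another between 0.968 and 0.991 (Pearson, across genes, which are not independent replicates), and array medians lay between 5.18 and 5.34. Stk17b, the targeted gene, averaged 10.52 ± 0.21 on NOD arrays and 10.25 ± 0.15 on NOD.Drak2-/- arrays (SD, n = 6 each), a difference of -0.27 (adjusted p = 0.517 in limma). Its groups overlapped, and the place of its probes relative to the deletion is unknown here, so the labels were not checked by it. Cd4 (9.67 in NOD and 9.87 in NOD.Drak2-/-), Ctla4 (9.81 and 9.60) and Ikzf2 (9.52 and 9.70) were well above the brightest of 23 antigenomic background rows (5.87 on average, probes with no target in the genome). Il2ra, which encodes CD25, was below it (4.82 and 5.00), and Foxp3 was not analysed here. Of 8 plasma cell markers 6 had means below that background row, among them Jchain (2.85 in NOD and 2.81 in NOD.Drak2-/-) and Mzb1 (2.67 and 2.70). The mean of this list lay between 4.47 and 4.87 in NOD arrays and between 4.49 and 4.81 in NOD.Drak2-/- arrays. The brightest marker row was Irf4 (7.85 and 7.91), a gene that regulatory T cells also express. The B cell marker mean ran from 4.92 to 5.14 and from 4.78 to 5.49, with 6 of 7 markers below background, and the myeloid and dendritic mean from 4.12 to 4.51 and from 4.24 to 4.72, with 8 of 8 below. Means of the CD8 T and NK markers ran from 5.26 to 5.62 and from 5.20 to 5.58, and those of stroma markers from 5.27 to 5.55 and from 5.26 to 5.37. Of the 6 stroma markers 4 were below background. The brightest of them, Pecam1, was well above it at 9.12 in NOD and 9.23 in NOD.Drak2-/- (difference 0.11, adjusted p = 0.772 in limma). Within the lists single markers differed in both directions, 0 of them past the threshold. The brightest CD8 T and NK marker, Nkg7, a cytotoxic granule gene, was above background at 8.20 ± 0.24 in NOD and 7.53 ± 0.42 in NOD.Drak2-/- (SD, n = 6 each; difference -0.67, adjusted p = 0.429 in limma). The brightest B cell marker, Cd79b, of the B cell receptor, was at 5.89 ± 0.25 and 6.37 ± 0.18 (difference 0.48, adjusted p = 0.436 in limma). An unadjusted p below 0.05 in limma was found for 3 of 7 B cell markers (1 positive, 2 negative) and 2 of 6 CD8 T and NK markers (1 of each sign). It was also found for 1 of 8 plasma cell markers (negative), 1 of 8 myeloid and dendritic markers (positive) and 0 of 6 stroma markers. Over all genes the share was 9.43%. The part of other cells in the results was not tested further. RNA was taken from sorted pools of cells, so fewer expressing cells and less RNA per cell cannot be told apart. Each of the 8 members was above its own array's brightest background row on every array. The margin was smallest for Sdf2l1, at 0.69 on the log2 scale.

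Between the genotypes, 0 of the 8 members passed an adjusted p of 0.05 in limma over all genes, where 4 of 19505 genes (0.0205%) passed. Their differences ran from -0.36 for Dnajb9 to 0.20 for Xbp1, with a median of -0.01 beside -0.02 for all genes. A positive difference was found for 4 of 8 members, beside 45.9% of all genes. At an unadjusted p below 0.05 stood 1 of 8 members, Dnajb9, beside 9.43% of all genes. The values of the genotypes overlapped for all 8. The share of all genes that overlap is not given here, so nothing particular to the members is read from this. Adjusted p-values of the members lay between 0.512 and 0.976. NOD.Drak2-/- replicates 1 and 2 had the brightest background rows (6.52 and 6.77, against 5.51 to 6.07 on the other arrays). Without these 2 arrays again 0 of 8 passed in limma, and the differences were 0.094 for Xbp1, -0.34 for Dnajb9, -0.12 for Atf4, -0.023 for Ddit3 and 0.024 for Hsp90b1, the last 3 with the opposite sign to that over all arrays.

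**Figure D2:**
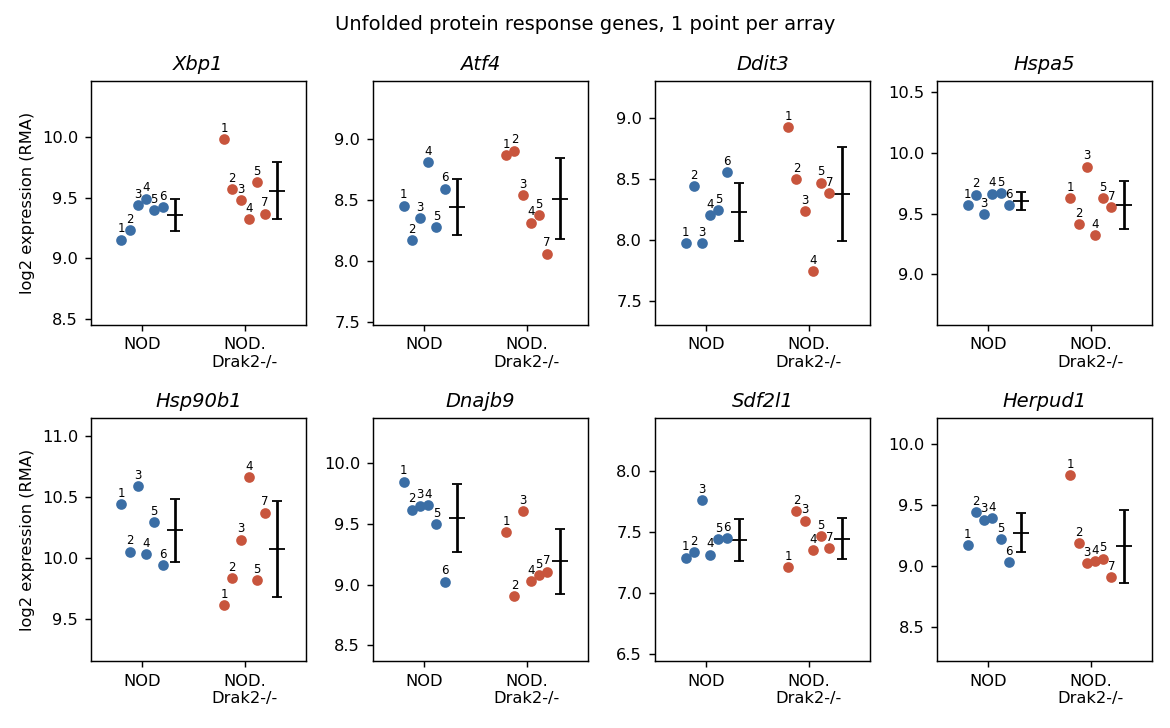
Log2 expression (RMA, vertical axis, each panel spanning the same range) of the 8 measured unfolded protein response genes in NOD (blue) and NOD.Drak2-/- (red) regulatory T cells, 1 numbered point per array, with the mean and SD of 6 arrays as black bars. The genotypes overlap in every panel, and NOD.Drak2-/- replicate 1 has the highest Xbp1, Ddit3 (kept row) and Herpud1 and the lowest Hsp90b1.

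Of the transcription factors, Xbp1 had the largest positive difference. Xbp1, the target of IRE1, had a lowest, median and highest log2 value of 9.15, 9.41 and 9.49 in NOD and of 9.32, 9.52 and 9.98 in NOD.Drak2-/-. Of the NOD.Drak2-/- arrays 3 lay above all NOD arrays and the other 3 within the NOD range. The means were 9.35 ± 0.13 and 9.56 ± 0.24 (SD, n = 6 each), a difference of 0.20 with a 95% interval of -0.06 to 0.46 and an adjusted p of 0.606 in limma. A two-sided exact permutation test gave p = 0.0844, with 5 of 6 NOD.Drak2-/- arrays above the NOD mean. The highest array was NOD.Drak2-/- replicate 1 at 9.98, the next being at 9.63, and without it the difference was 0.12.

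Atf4 encodes the factor that PERK signalling favours, and its groups covered much the same range. Its lowest, median and highest values were 8.17, 8.40 and 8.81 in NOD and 8.06, 8.46 and 8.90 in NOD.Drak2-/-. The difference was 0.07 (95% interval -0.26 to 0.40, adjusted p = 0.905 in limma), with 3 of 6 arrays above the NOD mean. NOD.Drak2-/- replicates 1 and 2, at 8.87 and 8.90, lay above all NOD arrays. Without replicate 1 the difference was -0.0035 and without replicate 2 it was -0.01, so its sign was not settled. Much of the control of ATF4 is on translation, which an mRNA level does not show.

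Ddit3 encodes CHOP, the factor tied to cell death under lasting ER stress, and it was the member with the widest range between arrays, 2.26-fold from lowest to highest. The kept row gave a lowest, median and highest value of 7.98, 8.22 and 8.56 in NOD and of 7.75, 8.43 and 8.92 in NOD.Drak2-/-. The NOD.Drak2-/- arrays held both the highest value (replicate 1) and the lowest (replicate 4), with the NOD range between them. The difference was 0.14 (95% interval -0.21 to 0.50, adjusted p = 0.80 in limma, 5 of 6 above the NOD mean) and was 0.035 without NOD.Drak2-/- replicate 1. Ddit3 had a second, dimmer row whose name gives a chromosome, while the name of the kept row marks it as unmapped. In the second row the highest array was NOD replicate 4 (7.82) and the lowest NOD replicate 1 (7.04). The second row averaged 7.28 ± 0.29 in NOD and 7.36 ± 0.17 in NOD.Drak2-/- (SD, n = 6 each), a difference of 0.08 (exact permutation p = 0.569). Both rows thus gave a small positive difference with overlapping groups, but their values did not follow each other closely from array to array, as given below.

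Of the ER chaperones, Hspa5 had the lowest residual SD of the 8 members. Hspa5 encodes BiP, the Hsp70 chaperone that holds the sensors inactive until unfolded protein draws it away. Its lowest, median and highest values were 9.49, 9.61 and 9.67 in NOD and 9.32, 9.59 and 9.89 in NOD.Drak2-/-. The NOD arrays lay close together, and the NOD.Drak2-/- arrays spread to both sides of them. The difference was -0.03 (95% interval -0.26 to 0.20, adjusted p = 0.94 in limma), so the interval runs from 0.835 to 1.15 as a ratio of NOD.Drak2-/- to NOD. Its residual SD of 0.15 was lower than that of all but 8.15% of genes, whose median was 0.25.

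The spread between arrays was larger in NOD.Drak2-/- for 6 of the 8 members, beside 61.2% of all genes. Ddit3 counts among the 6 by its kept row (SD 0.24 in NOD and 0.38 in NOD.Drak2-/-). Its second row had the larger SD in NOD (0.29, against 0.17 in NOD.Drak2-/-). For Hspa5 the SD was 0.07 in NOD and 0.20 in NOD.Drak2-/-. Dnajb9 and Sdf2l1 had the larger SD in NOD. This share over 8 genes was not tested.

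Hsp90b1 encodes GRP94, the Hsp90 chaperone of the ER, which folds Toll-like receptors and integrins. Its lowest, median and highest values were 9.94, 10.17 and 10.59 in NOD and 9.61, 9.99 and 10.66 in NOD.Drak2-/-. Of the NOD.Drak2-/- arrays 3 lay below all NOD arrays (replicates 1, 2 and 5) and replicate 4 lay above all of them. The difference was -0.15 (95% interval -0.52 to 0.22, adjusted p = 0.795 in limma), with 4 of 6 below the NOD mean. Without NOD.Drak2-/- replicate 1 it was -0.06.

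The co-chaperones gave the largest negative difference and one of the smallest. Dnajb9 encodes ERdj4, a J-domain partner of BiP that XBP1 induces. Its lowest, median and highest values were 9.02, 9.63 and 9.85 in NOD and 8.90, 9.09 and 9.60 in NOD.Drak2-/-. In NOD 5 of 6 arrays lay between 9.50 and 9.85 with replicate 6 at 9.02, and in NOD.Drak2-/- 4 of 6 lay between 8.90 and 9.11 with replicates 1 and 3 at 9.43 and 9.60. The means were 9.55 ± 0.28 and 9.19 ± 0.27 (SD, n = 6 each), a difference of -0.36 (SE 0.15, 95% interval -0.68 to -0.03). As a ratio NOD.Drak2-/- stood at 0.782 of NOD. The adjusted p was 0.512 in limma and the unadjusted p 0.0322, a two-sided exact permutation test gave p = 0.0498, and 5 of 6 arrays lay below the NOD mean. Of the 8 members this difference had the smallest p, and it did not pass over all genes. Its sign was negative under each of the 23 alternatives run, from -0.46 without NOD replicate 6 to -0.28 with array weights, with adjusted p-values from 0.407 to 0.724. The alternatives reuse the same arrays and are not independent. Genes above background alone, the mean of all rows, a trended prior and an ordinary linear model could not change the difference.

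Sdf2l1 encodes a small partner of the BiP complex that is strongly induced by ER stress. Its lowest, median and highest values were 7.29, 7.39 and 7.76 in NOD and 7.21, 7.42 and 7.67 in NOD.Drak2-/-. The difference was 0.01 (95% interval -0.23 to 0.26, adjusted p = 0.976 in limma), with 5 of 6 NOD.Drak2-/- arrays within the NOD range. Its sign changed with the array left out.

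Herpud1 encodes HERP, a membrane protein of ER-associated degradation. Its lowest, median and highest values were 9.03, 9.30 and 9.44 in NOD and 8.91, 9.05 and 9.75 in NOD.Drak2-/-. In NOD.Drak2-/- 5 of 6 arrays lay below the NOD mean and replicate 1, at 9.75, above every NOD array. The difference was -0.11 (95% interval -0.41 to 0.18, adjusted p = 0.814 in limma) and was -0.23 without that array. The distance from the NOD mean was thus larger without NOD.Drak2-/- replicate 1 for Herpud1 and smaller for Xbp1, Ddit3 and Hsp90b1.

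The other genes of the pathway, taken from 6 lists of 92 measured genes, gave 0 genes past the threshold over all genes in limma, and 4 of 92 met an unadjusted p under 0.05, beside the 9.43% of all genes given above. Of the 92 genes 15 had means below the brightest background row. The sensors differed little: Ern1, which encodes IRE1, by 0.20 (95% interval -0.21 to 0.61), the PERK gene Eif2ak3 by -0.13 (-0.45 to 0.19) and Atf6 by -0.07 (-0.45 to 0.30), with adjusted p-values of 0.75, 0.795 and 0.909. Among the 8 sensors and factors 6 had a positive difference, beside 45.9% of all genes, with a median of 0.11. Mbtps1, the protease that begins the cleavage of ATF6, differed by 0.10 (adjusted p = 0.783).

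The chaperone, disulphide and degradation lists were centred near the median of all genes. The 13 ER chaperones had a median of -0.02 and 1 gene at an unadjusted p under 0.05. This was Dnajc1, an ER membrane J-domain protein, at 6.09 ± 0.23 in NOD and 6.57 ± 0.42 in NOD.Drak2-/- (difference 0.48, adjusted p = 0.483), levels close to the brightest background row. Cnpy3, a cofactor of GRP94, differed by -0.26 (adjusted p = 0.606), with its NOD.Drak2-/- mean of 5.84 below that row. The 11 genes of disulphide bond formation had a median of -0.02, with the peroxiredoxin gene Prdx4 at -0.31 (adjusted p = 0.674) and Txndc11 at 0.23 (adjusted p = 0.626) but with means of 2.82 and 3.05, below background. The 16 genes of ER-associated degradation had a median of 0.04. Sel1l, the adaptor of the HRD1 ubiquitin ligase, was at 6.25 ± 0.44 in NOD and 5.77 ± 0.33 in NOD.Drak2-/- (difference -0.48, adjusted p = 0.506). Its NOD.Drak2-/- mean was below the brightest background row. Selenok differed by -0.18 (adjusted p = 0.661).

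Genes of translocation into the ER and signal peptide cleavage had negative differences in 17 of 19, where 45.9% of all genes had a positive one. Their median was -0.09, and 0 were at an unadjusted p under 0.05. Array medians ran from 5.22 to 5.34 in NOD and from 5.18 to 5.24 in NOD.Drak2-/-. The signs of this list were not counted again with arrays centred on their median. Centring adds the same amount to every gene's difference, and it took Hspa5 from -0.031 to 0.035. That amount would turn the negative differences of Sec61a1 (-0.033), Ssr3 (-0.023), Sec11c (-0.039), Spcs2 (-0.064) and Srprb (-0.064) positive. Fewer than 17 of 19 would then be negative. Ssr1, of the translocon-associated complex, differed by -0.28 (adjusted p = 0.624) and the signal peptidase subunit gene Spcs3 by 0.26 (adjusted p = 0.621). The mean of the 19 genes was 8.76 and 8.62 in NOD.Drak2-/- replicates 1 and 2, against 8.81 to 9.09 in the NOD arrays and 8.85 to 9.09 in the other 4. Those were also the 2 arrays of brightest background, and the part of that background in the list's values was not tested. The 25 genes listed as integrated stress response targets, most of which ATF4 or CHOP is known to raise, had a median of -0.04 with 12 positive. Of these 25 genes 8 had means below the brightest background row. Ddit4, an inhibitor of mTORC1, was at 6.11 ± 0.43 in NOD and 6.85 ± 0.48 in NOD.Drak2-/- (difference 0.74, 95% interval 0.25 to 1.22, adjusted p = 0.469). Its NOD mean was close to the brightest background row (5.87 on average), and its lowest NOD array, at 5.36, was below it. The transcription factor gene Cebpb was at 5.61 ± 0.20 and 5.21 ± 0.13 (difference -0.40, adjusted p = 0.469), both means below the brightest background row. Ddit4 and Cebpb, both known ATF4 targets, thus lay on opposite sides of 0, and neither passed over all genes.

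**Figure D3:**
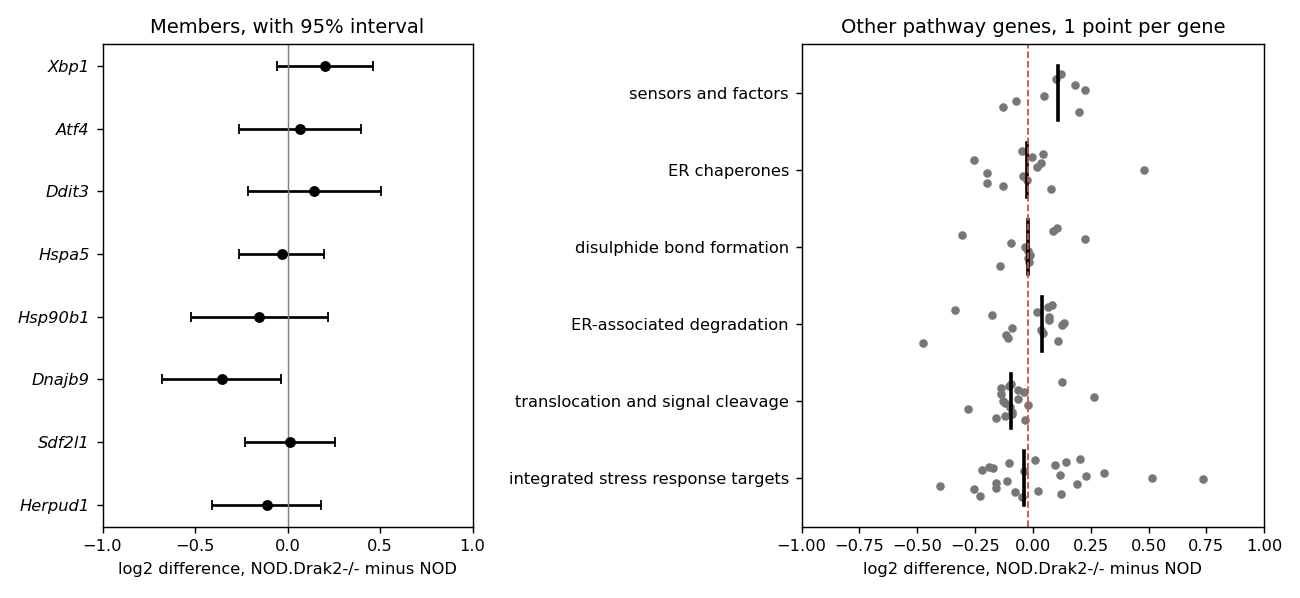
Log2 difference between NOD.Drak2-/- and NOD (horizontal axes) for the 8 members with 95% intervals (left) and for the other genes of the pathway by list, 1 point per gene with the list median as a black bar (right). The dashed line is the median of all genes (-0.02); the interval of Dnajb9 lies below 0 (-0.68 to -0.03, not adjusted for the number of genes) and those of the other 7 members span 0.

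From array to array the members did not move together as a whole. Over 12 arrays with each genotype's mean removed, the 28 member pairs had a median Pearson r of 0.05, and 17 of 28 were positive. Xbp1 went with Herpud1 (r = 0.72, Spearman's rho 0.51), Ddit3 (r = 0.68, rho 0.48) and Atf4 (r = 0.65, rho 0.55). The two-sided permutation p-values of these r were 0.0422, 0.0448 and 0.0406, and those of rho 0.0964, 0.137 and 0.0843. None of these 3 passed Benjamini-Hochberg adjustment over the 28 pairs (adjusted p = 0.247 for each r). The relations rested on few arrays: without the 2 arrays farthest from the median of Xbp1, r was 0.31, 0.20 and 0.53. Within NOD alone r was 0.06, 0.14 and 0.51, and within NOD.Drak2-/- alone 0.92, 0.87 and 0.71.

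The lowest pair was Ddit3, by its kept row, and Hsp90b1, which ran against each other. Pearson's r was -0.90 (permutation p = 0.00037, adjusted p = 0.0104 over the 28 pairs) and rho -0.87 (permutation p = 0.00076, adjusted p = 0.0213), the only pair of the 28 past the threshold by either. NOD.Drak2-/- replicate 4 had the lowest Ddit3 (7.75) and the highest Hsp90b1 (10.66) of all 12 arrays, and NOD.Drak2-/- replicate 1 the highest Ddit3 (8.92) and the lowest Hsp90b1 (9.61). In NOD, replicates 1 and 3 had the lowest Ddit3 (both 7.98) and the highest Hsp90b1 (10.44 and 10.59). Without the 2 arrays farthest from the Ddit3 median r was -0.79. Within NOD alone it was -0.89 (exact permutation p = 0.0278) and within NOD.Drak2-/- alone -0.90 (exact permutation p = 0.0111), and 0 of 28 pairs passed adjustment within either genotype, where the smallest adjusted p of any pair was 0.447 in NOD and 0.175 in NOD.Drak2-/-. Without the 2 arrays of brightest background r was -0.85, and 0 of 28 pairs passed. Xbp1 was also negative with Hsp90b1 (r = -0.71, rho -0.63, -0.45 without the 2 farthest arrays, permutation p = 0.0217 and 0.0436), not past the threshold (adjusted p = 0.247 and 0.45). Of all genes 52 (0.267%) had an r to Hsp90b1 as low as Ddit3 or lower.

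**Figure D4:**
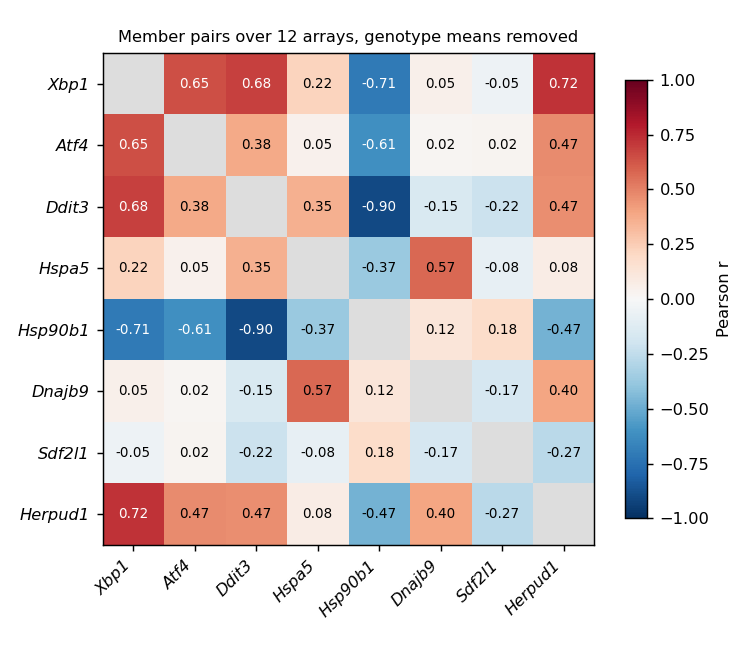
Pearson r for each pair of the 8 members over 12 arrays with genotype means removed, from blue (-1) to red (1). Xbp1, Atf4, Ddit3 and Herpud1 are positive with one another, and Hsp90b1 is negative with each of these 4, lowest with Ddit3 (-0.90), but 4 of these 10 signs turn without the 2 arrays of brightest background and within NOD alone.

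Of the 10 pairs among Xbp1, Atf4, Ddit3, Herpud1 and Hsp90b1, 4 turned sign without NOD.Drak2-/- replicates 1 and 2, the arrays of brightest background. Over all 12 arrays r was 0.47 for Atf4 and Herpud1, 0.47 for Ddit3 and Herpud1, 0.38 for Atf4 and Ddit3 and -0.47 for Herpud1 and Hsp90b1, each with an adjusted p of 0.592 or above. Without those 2 arrays the 4 values were -0.043, -0.23, -0.049 and 0.023, and within NOD alone -0.23, -0.25, -0.0030 and 0.14. The other 6 pairs of these 5 genes kept their sign in both, Xbp1 and Herpud1 at 0.14 and 0.057.

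Both genes of that pair also moved with the background signal of the arrays. The mean of the GC-rich antigenomic rows ran from 5.16 to 6.08, lowest in NOD.Drak2-/- replicate 4 and NOD replicate 1 and highest in NOD.Drak2-/- replicates 1 and 2. With genotype means removed, Ddit3 had r = 0.83 (rho 0.90) with it and Hsp90b1 r = -0.83 (rho -0.81), with permutation p-values of 0.00245 (0.00012 for rho) and 0.00351 (0.00544 for rho). These 2 passed adjustment over 16 relations, of 8 members with 2 array measures (adjusted p = 0.0281 for each r, 0.00192 and 0.0435 for rho). Without the 2 arrays farthest from its median the r values were 0.89 and -0.79. Without NOD.Drak2-/- replicates 1 and 2 they were 0.90 and -0.80. Of all genes 1.33% had an r with these rows as high as Ddit3 and 1.31% one as low as Hsp90b1. Xbp1 had r = 0.67 (rho 0.57) and Atf4 r = 0.58 (rho 0.48), not past the threshold (adjusted p = 0.212 and adjusted p = 0.223), and Hspa5 r = 0.073. Without the same 2 replicates r was 0.64 for Xbp1, 0.039 for Atf4 and 0.45 for Hspa5, and Herpud1 went from 0.47 to -0.037. With the mean of heat shock and dissociation genes 0 of 8 members passed. The part of the background signal in the relation of Ddit3 and Hsp90b1 was not tested.

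The second Ddit3 row had relations of the same sign and nearer to 0, and the difference between the rows was not tested. It had r = 0.33 with the kept row (rho 0.45, permutation p = 0.249 and 0.151), r = -0.52 with Hsp90b1 (rho -0.62, permutation p = 0.0613 and 0.0338) and r = 0.28 with the GC-rich rows (rho 0.38, permutation p = 0.321 and 0.21). Without the 2 arrays farthest from the median r was 0.31, -0.41 and 0.46. These 3 relations were looked at after the values had been seen and are not adjusted.

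**Figure D5:**
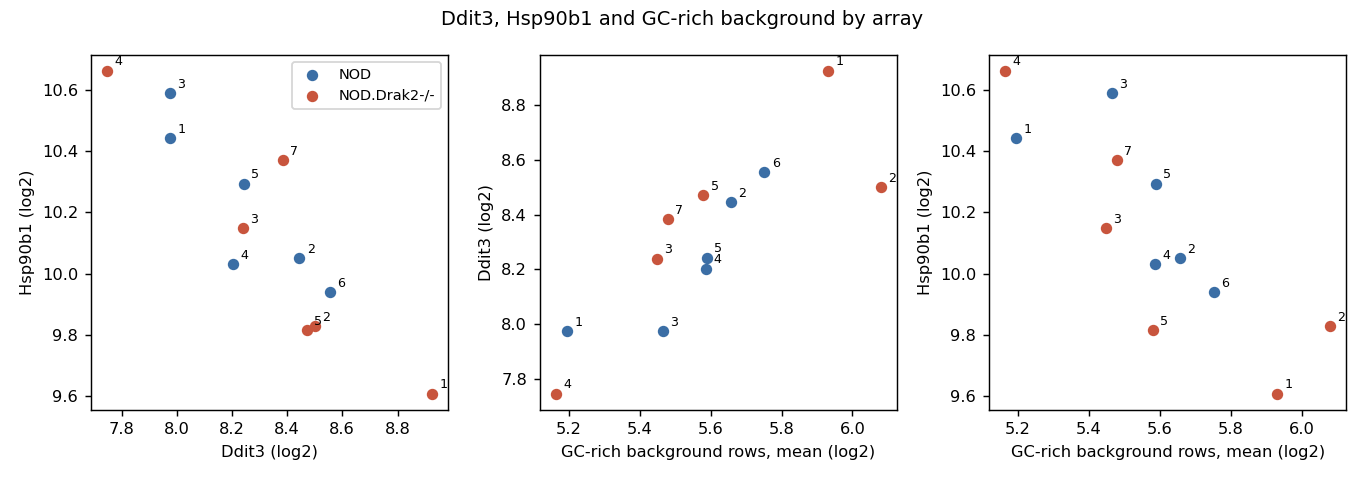
Log2 values of Ddit3 (kept row), Hsp90b1 and the mean of the GC-rich antigenomic background rows against each other, 1 numbered point per array, NOD in blue and NOD.Drak2-/- in red. Ddit3 lies high and Hsp90b1 low on arrays of high background, NOD.Drak2-/- replicate 1 at one end and replicate 4 at the other.

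The genes whose array-to-array pattern was most like that of Xbp1, by Pearson r over the 12 arrays with genotype means removed, were Olfr775 (0.97), Mrps24 (0.94), Coro1b (0.93), Kel (0.92) and Tbccd1 (0.92). Olfr775 averaged 2.38 in NOD and 2.37 in NOD.Drak2-/-, Kel 4.36 and 4.40 and Tbccd1 5.40 and 5.26, so 3 of these 5 genes had means below the brightest background row in both genotypes. For Hspa5 they were Chn2 (0.91), Msantd1 (0.87), Klf11 (0.87), Ranbp9 (0.86) and Srfbp1 (0.86), of which Chn2, Msantd1 and Srfbp1 had means below that row in both genotypes. None of the members was among these genes.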

How the data were processed

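Per the labels' protocols, cells were isolated by flow cytometric sorting and 125 ng of RNA per sample was made into biotin-labelled cDNA for 1-colour arrays. The deposited values are on a log2 scale, and the submitters' processing notes name RMA and the R package oligo, without versions. RMA corrects background, makes the arrays' distributions alike and summarises probes per row, which can hide a shift common to all genes, and probes differ in response, so levels were not compared between genes. Depth does not apply; the number of arrays limits precision.

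Of 29129 rows, 19572 had 1 gene symbol; the brightest row per gene gave 19505 genes. The genotypes were compared by limma 3.58.1 in R 4.3.3 (lmFit, eBayes) with Benjamini-Hochberg adjustment over all genes and a threshold of 0.05; adjusted p-values of genes come from it. It was tested on simulated data, where 22% of genes with a log2 difference of 0.5 and 92% at 1 were recovered and 0 genes were called with no change. The simulated noise was independent between genes, with no effect shared by an array, so these rates may not hold for the real arrays. The difference of every member was smaller in size than the smallest simulated, 0.5. For single genes an exact permutation test (two-sided, 924 regroupings) was run (smallest p 0.00216). Correlations used 100000 permutations within genotype, or all 720 within 1 genotype. The members, lists and rule for named genes (all members, the sensors, the 2 smallest p per list, the 3 highest and the lowest pair, the 5 genes most like Xbp1 and Hspa5, the targeted gene, brightest markers) were chosen with earlier results of these data known; Jchain, Mzb1, Cd4, Ctla4, Ikzf2 and Il2ra were named as defining markers. Under older symbols 3 listed genes were found. Same-numbered arrays of the genotypes had correlations of their deviations between -0.18 and 0.09, which cannot exclude a weak pairing. The labels name no pairing, and the main comparison did not use the numbers. The sources used here give no scan date or batch.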

Additional observations from a re-analysis of the deposited data

Results flagged for a closer look

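In 46 groups of 6 arrays (8 members and 15 other named genes, each in both genotypes) 4 had 1 array whose gap to the nearest other exceeded Dixon's 95% critical share of the group's range, and chance gives about 1 in 20. Herpud1 was 9.75 in NOD.Drak2-/- replicate 1, with the next array at 9.19. Sdf2l1 was 7.76 in NOD replicate 3, with the next at 7.45. Stk17b was 9.97 in NOD.Drak2-/- replicate 2, with the next at 10.21. Sel1l was 5.15 in NOD.Drak2-/- replicate 2, with the next at 5.76. That array had the brightest background row of the series (6.77).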

How the results depend on the processing

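No member and no other pathway gene passed under any of the 23 alternatives run, of which 2, with GC-rich background as a covariate or without the 2 arrays of brightest background, were chosen after seeing the data. Adjusted p-values of the members stayed at 0.407 or above. Over all genes 4 passed, against 1 to 2 when 1 array was left out, 0 with an ordinary linear model, 0 with the replicate block, 7 with the GC-rich background covariate and 2 without the 2 arrays of brightest background. With the block, over replicates 1 to 5, 0 of 10 arrays correlated best with their own number, and 0 members passed. Differences kept their sign under all 23 alternatives for Xbp1 (0.09 to 0.27), Herpud1 (-0.26 to -0.05) and Dnajb9 (-0.46 to -0.28). The alternatives reuse the same arrays, and some, such as the ordinary linear model, could not change the differences of these genes. The sign changed when 1 array was left out for Hspa5 (-0.093 to 0.019), Atf4 (-0.011 to 0.16) and Sdf2l1 (-0.032 to 0.078). It also changed for Hspa5 with median centring (0.035) and array weights (0.014), and without the 2 arrays of brightest background for Atf4 (-0.12), Ddit3 (-0.023) and Hsp90b1 (0.024). The causes were not tested. Of the member pairs 1 passed, and 0 passed within NOD alone, within NOD.Drak2-/- alone and without the 2 arrays of brightest background, settings with fewer arrays in which Ddit3 and Hsp90b1 had r of -0.89, -0.90 and -0.85.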

Other observations

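Xbp1 and Dnajb9, an XBP1 target, differed in opposite directions, and their ratio within an array was looked at after these values had been seen. Xbp1 minus Dnajb9 averaged -0.19 ± 0.36 on NOD arrays and 0.37 ± 0.29 on NOD.Drak2-/- arrays (SD, n = 6 each), running from -0.69 to 0.40 and from -0.13 to 0.67. The change was 0.56 on the log2 scale (two-sided exact permutation p = 0.0238, and 0.323 after Benjamini-Hochberg adjustment over the 28 member pairs). The smallest p of the 28 was that of Xbp1 minus Herpud1, which changed by 0.31 (exact permutation p = 0.0108, 0.303 after adjustment), so the ratio of no pair passed. A log2 value of one row minus that of another shows unequal change and gives no level.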
